A study of Mus musculus with 12 samples.

Results

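The genes described here encode the enzymes that add methyl groups to histone lysines or take them off, with the core subunits of Polycomb repressive complex 2 (PRC2). Members had to code for protein, to average 10 or more normalized counts across the 12 mice, and to carry a symbol of the Kmt, Kdm, Setd, Nsd, Ezh, Ehmt or Suv39h series, together with Ash1l, Dot1l, Eed and Suz12, and the Y-linked Uty was left out. Of the 19312 genes measured, 49 carried a matching symbol and 47 were members, since Kdm4dl is annotated as a pseudogene and Kdm6bos as an antisense RNA. RNA from the brain of 12 male C57BL/6N mice at postnatal day 25 was sequenced, with 3 mice in each of 4 groups. WT-Veh mice were wild-type mice that received vehicle, 0.1% saccharin, and WT-Mem mice were wild-type mice that received memantine, a blocker of the NMDA type of glutamate receptor. KO-Veh and KO-Mem mice received the same 2 solutions and carried the homozygous Shank2 deletion of exons 6 and 7 in every cell, on the single line the study used. Memantine was given by mouth at 20 mg/kg 2 times a day from postnatal day 7 to 21, so all 12 mice had been without treatment for several days when they were sampled. The study asked how the deletion alters the forebrain transcriptome and what early memantine does to it in each genotype.

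Histone lysine methyltransferases transfer a methyl group from S-adenosylmethionine to lysines of histone H3 or H4, mostly through a SET domain, and demethylases remove it through a JmjC or an amine oxidase domain. Methylation of lysine 4 or 36 of histone H3 (H3K4, H3K36) marks active promoters, enhancers and transcribed gene bodies, whereas methylation of H3K9, H3K27 and H4K20 marks heterochromatin and silenced genes. Several members are dosage-sensitive genes of neurodevelopmental disorders, and the enzymes are expressed broadly in neurons and glia.

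The values are normalized counts: gene counts estimated from the reads and divided by the authors' size factors, so that mice can be compared with each other. Shank2, the targeted gene, stood at 8248, 7427 and 8325 normalized counts for WT-Veh and at 7936, 8548 and 7156 for WT-Mem mice. Its values were 3053, 3006 and 2723 for KO-Veh and 2817, 2706 and 3178 for KO-Mem mice. All 6 KO mice lay below all 6 WT mice (log2 fold change -1.45 ± 0.06, SE), at an adjusted p of 6.01e-09 (limma, Benjamini-Hochberg over all genes), and the value counts the whole gene and not only the deleted exons. The spacing of low values put 1 read at 0.874 to 1.13 normalized counts, which gives relative depths of 0.890 to 1.15. Labels give whole brain and the methods the forebrain without cerebellum and brain stem. The hindbrain and brain stem marker Slc6a5 was at 12.9 to 180 normalized counts in the WT-Mem mice and within that range in the others, and 5 further such markers were not analysed here. Of 6 cerebellar granule cell markers, Gabra6 was listed at 0 in 6 of 12 mice. Neurod1, Cbln1, Cbln3, Etv1 and Pax6 were at 0 in none. The 6 summed to 3634 to 3869 normalized counts in WT-Veh and 3370 to 4141 in WT-Mem mice. The sums were 3728, 3783 and 5577 in KO-Veh and 3400 to 3735 in KO-Mem mice. How much cerebellum each sample held was not tested.

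The 47 members had a mean over the 12 mice from 50.5 (Kdm4d) to 7465 (Ehmt2) normalized counts, with a median of 1927. Per kilobase of exon, Ehmt2 stood first with a mean level of 1360 normalized counts per kb, and Kdm4b (634), Setd3 (622), Setd7 (560) and Dot1l (535) followed. Lowest on the same scale were Kdm4d (17.6), Suv39h2 (25.6), Ezh2 (33.3), Setd4 (40.0) and Kdm8 (55.0). The paralogs thus stood far apart: Ezh1 was at 270 normalized counts per kb and Ezh2 at 33.3, and Suv39h1 was at 175 and Suv39h2 at 25.6. The members are long genes, with a median exon length of 8225 bases against 4452 for all 15051 protein-coding genes at this level, and 39 of 47 (83.0%) reach 5000 bases against 43.0% of those genes. Between mice of a group, the median coefficient of variation over the members was 7.73% in WT-Veh, 8.20% in WT-Mem, 4.94% in KO-Veh and 8.40% in KO-Mem mice (n = 3 each). The largest was that of Kdm4d in WT-Veh (33.7%), KO-Veh (27.9%) and KO-Mem mice (45.7%), and that of Kdm5a in WT-Mem mice (18.1%).

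In the comparison of genotypes over both treatments, 6 KO against 6 WT mice, 5 members rose and 2 fell. Those that rose were the H3K9 methyltransferases Suv39h1 and Ehmt2, the H3K4 family member Kmt2e, the H3K36 methyltransferase Nsd1, and Setd5. Setd7, an H3K4 monomethyltransferase, and Kmt5c, an H4K20 methyltransferase, fell. The test was limma on log2(normalized count + 1) with Benjamini-Hochberg adjustment over 17655 genes, and genes were called when this adjusted p was under 0.05. Of all genes tested, 4.79% were called higher and 5.73% lower, 10.5% in all, against 5 and 2 of 47 members. All 7 called members were among the 29 genes of the methyltransferase side, PRC2 core and other SET-domain genes included, and none among the 18 demethylase genes. At an unadjusted p under 0.05, 10 of the 29 were higher and 3 lower. Of the 18 demethylase genes, 6 were higher and none was lower, so the share that was higher was similar on both sides. The difference between the 2 sides was not tested. Of the 47 members 35 (74.5%) had a log2 fold change above 0, against 50.9% of all genes. Among the 6474 coding genes of at least 5000 exon bases, called long coding genes here, 57.8% lay above 0. The median was 0.08 over the members, 0.00 over all genes and 0.03 over the long coding genes. At an unadjusted p under 0.05, 16 members were higher and 3 lower. All genes gave 14.3% and 15.1%, and 19.0% of long coding genes were higher. Over 15051 coding genes the genotype log2 fold change had a Pearson correlation of 0.13 with log2 exon length. The part of gene length in the results on the family was not tested. The count of 7 was 2 without KO-Veh replicate 3, when 2.99% of all genes were called. It was 4 without WT-Veh replicate 2, KO-Veh replicate 1, KO-Mem replicate 1 or KO-Mem replicate 2, with 4.42%, 5.11%, 3.54% and 4.27% of all genes called in that order, and 16 without KO-Mem replicate 3, with 18.5% called.

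**Figure D1:**
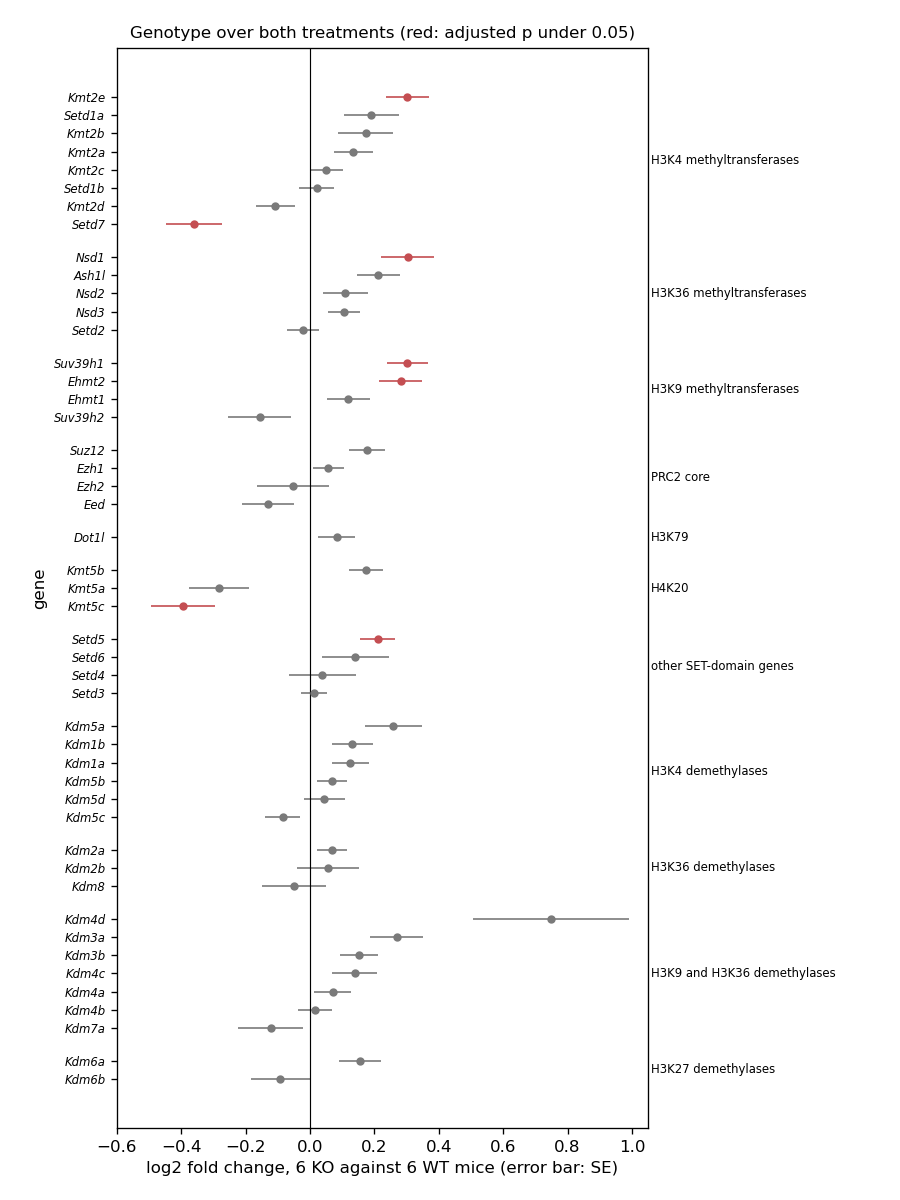
Log2 fold change of each of the 47 members between 6 KO and 6 WT mice, grouped by role; points are estimates and bars are SE. Red points are the 7 called members, 5 to the right of 0 and 2 to the left, and the other 40 members are grey.

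The clearest of these was Suv39h1 (ENSMUSG00000039231, GRCm38 chrX:8061171-8074760, minus strand), which trimethylates H3K9 in pericentric heterochromatin. Its normalized counts were 829, 737 and 828 for WT-Veh, 788, 889 and 874 for WT-Mem, 980, 895 and 901 for KO-Veh and 1233, 1121 and 997 for KO-Mem mice. Every KO mouse lay above every WT mouse, which held for no other member and for 1.86% of all genes (2.2% the other way). The log2 fold change was 0.30 ± 0.06 (SE), a rise of 23.3% (adjusted p = 0.0148, limma). Suv39h1 remained called whichever of the 12 mice was left out, with log2 fold changes from 0.26 to 0.34.

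Part of the Suv39h1 gene is also covered by Gm14820, an antisense gene on the other strand (chrX:8042943-8074619, plus strand) that shares 767 of its 2096 exon bases with Suv39h1. The methods name a TruSeq mRNA kit and do not say whether it kept the strand. Reads from the shared bases may therefore not be assignable to one gene by strand. Gm14820 was listed at 0, 0 and 0.840 normalized counts in WT-Veh and at 29.7, 1.81 and 0 in WT-Mem mice. It was at 46.9, 17.95 and 33.3 in KO-Veh and at 26.1, 24.1 and 33.2 in KO-Mem mice, above the WT mice except for WT-Mem replicate 1 (adjusted p = 0.00827, limma). The mean of Suv39h1 was 127 normalized counts higher in KO-Veh than in WT-Veh mice and 267 higher in KO-Mem than in WT-Mem mice, and the same differences of Gm14820 were 32.4 and 17.3. How reads of one gene were assigned to the other was not tested.

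**Figure D2:**
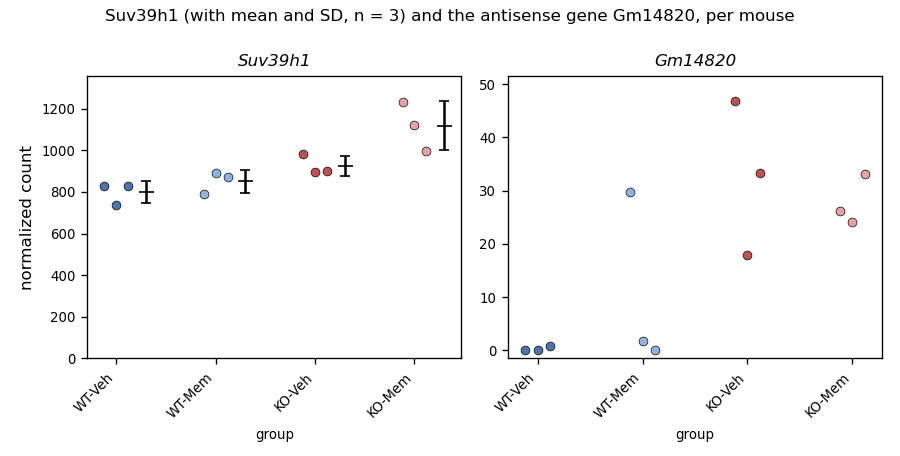
Normalized count per mouse (vertical axis, from 0 for Suv39h1) of Suv39h1, with mean and SD of 3 mice, and of its antisense neighbour Gm14820, by group. All 6 KO mice stand above all 6 WT mice in Suv39h1, and 1 WT-Mem mouse, at 29.7, stands among the KO mice in Gm14820.

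The 300 bases around the Suv39h1 start are shown with those of the called H3K9 partner Ehmt2, because both genes rose and their start regions could be compared. Sequences are from RefSeq (GRCm38.p6), 250 bases before to 50 bases after the start, 5′ to 3′ on the gene's own strand, at chrX:8074711-8075010 (minus strand) for Suv39h1 and chr17:34898224-34898523 (plus strand) for Ehmt2. Capitals mark the GC box GGGCGG and the CCAAT box CCAAT, searched on both strands (CCGCCC and ATTGG on the other), where neighbouring matches may share letters.
Suv39h1: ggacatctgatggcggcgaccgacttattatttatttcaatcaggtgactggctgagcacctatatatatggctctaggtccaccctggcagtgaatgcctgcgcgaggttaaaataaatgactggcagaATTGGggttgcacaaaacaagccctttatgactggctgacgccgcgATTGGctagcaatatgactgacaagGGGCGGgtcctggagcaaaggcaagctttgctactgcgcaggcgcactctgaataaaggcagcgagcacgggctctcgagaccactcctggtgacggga
Ehmt2: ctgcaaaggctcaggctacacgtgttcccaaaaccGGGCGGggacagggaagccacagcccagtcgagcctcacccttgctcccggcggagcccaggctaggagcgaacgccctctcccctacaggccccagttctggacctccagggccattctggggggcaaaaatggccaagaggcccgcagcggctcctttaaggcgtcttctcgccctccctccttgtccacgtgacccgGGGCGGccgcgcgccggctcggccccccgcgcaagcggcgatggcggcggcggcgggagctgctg
The Suv39h1 window held 1 GC box, 2 CCAAT boxes and 15 CG dinucleotides. The Ehmt2 window held 2 GC boxes, no CCAAT box and 28 CG dinucleotides. A GC box stands in 35.7% and a CCAAT box in 37.4% of all 32851 RefSeq promoters of this length.

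Ehmt2 encodes G9a, which mono- and dimethylates H3K9 in euchromatin together with Ehmt1. It had 6863, 6670 and 6027 normalized counts for WT-Veh, 6688, 6744 and 7240 for WT-Mem, 7407, 7023 and 7726 for KO-Veh and 10563, 9008 and 7622 for KO-Mem mice. Apart from KO-Veh replicate 2, each KO mouse lay above all WT mice. The rise was 0.28 ± 0.07 on the log2 scale (21.6%, adjusted p = 0.0220, limma), and the adjusted p was 0.0631 without KO-Veh replicate 3 and 0.0507 without KO-Mem replicate 2. Its partner Ehmt1, at 1154 to 1656 normalized counts, had a log2 fold change of 0.12 ± 0.07 (adjusted p = 0.256), and Suv39h2 one of -0.16 ± 0.10 (adjusted p = 0.308, limma for both).

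Among the 8 genes grouped here under H3K4 methyltransferases, where Kmt2e stands by its family, Kmt2e rose and Setd7 fell. Kmt2e (chr5:23434441-23504235, plus strand) encodes a protein of the MLL family that reads methylated H3K4 and is a gene of a neurodevelopmental disorder. Its normalized counts were 3885, 3222 and 3535 for WT-Veh, 4257, 4154 and 3423 for WT-Mem, 4793, 4053 and 4359 for KO-Veh and 4980, 4956 and 4504 for KO-Mem mice. KO-Veh replicate 2 was the 1 KO mouse within the WT range. The log2 fold change was 0.30 ± 0.07 (adjusted p = 0.0162, limma), it was called without any one of the 12 mice, and 972 exon bases of Kmt2e are shared with Srpk2 on the other strand, whose log2 fold change was 0.06 ± 0.04 (adjusted p = 0.385).

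Setd7 (chr3:51515319-51560879, minus strand) monomethylates H3K4 and also lysines of other proteins. Its 300 bases around the start (chr3:51560774-51561073, minus strand) are shown with those of Kmt5c (chr7:4739877-4740176, plus strand), the other gene that fell, with the same source and capitals.
Setd7: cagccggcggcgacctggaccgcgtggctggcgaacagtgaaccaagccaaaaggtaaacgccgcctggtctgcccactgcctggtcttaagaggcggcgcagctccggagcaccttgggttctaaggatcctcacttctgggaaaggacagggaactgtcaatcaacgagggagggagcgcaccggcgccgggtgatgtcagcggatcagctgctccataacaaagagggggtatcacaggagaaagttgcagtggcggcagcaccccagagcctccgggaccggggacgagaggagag
Kmt5c: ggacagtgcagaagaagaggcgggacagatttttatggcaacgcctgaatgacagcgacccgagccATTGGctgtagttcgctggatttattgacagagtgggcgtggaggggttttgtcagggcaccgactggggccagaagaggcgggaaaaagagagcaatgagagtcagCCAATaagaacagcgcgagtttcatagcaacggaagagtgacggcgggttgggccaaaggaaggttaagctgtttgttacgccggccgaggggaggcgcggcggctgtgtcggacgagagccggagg
The Setd7 window held neither motif and 21 CG dinucleotides, and the Kmt5c window held no GC box, 2 CCAAT boxes and 22 CG dinucleotides. Setd7 had 7032, 7108 and 7167 normalized counts for WT-Veh, 7256, 6707 and 5445 for WT-Mem, 6047, 5995 and 5654 for KO-Veh and 3739, 4949 and 5593 for KO-Mem mice. WT-Mem replicate 3 was the 1 WT mouse among the KO mice, and KO-Mem replicate 1 was by far the lowest. The log2 fold change was -0.36 ± 0.09, a fall to 0.779 of the WT level (adjusted p = 0.0230, limma), and the adjusted p was 0.0507 without WT-Veh replicate 2, 0.0533 without WT-Mem replicate 1 and 0.0634 without KO-Veh replicate 3.

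No other gene grouped under H3K4 methyltransferases was called between genotypes. Setd1a (0.19 ± 0.08, adjusted p = 0.152) and Kmt2a (0.13 ± 0.06, adjusted p = 0.153, limma for both) were higher at an unadjusted p under 0.05. Kmt2d, which monomethylates H3K4 at enhancers and is the gene of Kabuki syndrome, had 6945, 6144 and 5865 normalized counts for WT-Veh, 6317, 6099 and 5201 for WT-Mem, 5050, 5477 and 5759 for KO-Veh and 6262, 5883 and 5455 for KO-Mem mice. The KO-Veh mice lay below the WT-Veh mice and the KO-Mem mice within the WT-Mem range, and the log2 fold change over both treatments was -0.11 ± 0.06 (adjusted p = 0.254, limma).

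Of the 5 H3K36 methyltransferase genes Nsd1 rose. It encodes the H3K36 dimethyltransferase whose loss causes Sotos syndrome (chr13:55209782-55318325, plus strand). Nsd1 had 5521, 4518 and 5475 normalized counts for WT-Veh, 5497, 5648 and 4386 for WT-Mem, 5679, 5590 and 6058 for KO-Veh and 8020, 7161 and 5935 for KO-Mem mice. KO-Veh replicate 2 lay just within the WT range, and the KO-Mem mice held the 2 highest values. The log2 fold change was 0.30 ± 0.08 (adjusted p = 0.0330, limma). Without WT-Veh replicate 2, WT-Mem replicate 3, KO-Veh replicate 1, KO-Veh replicate 3, KO-Mem replicate 1 or KO-Mem replicate 2 its adjusted p was 0.0770, 0.0649, 0.0602, 0.0864, 0.0863 and 0.0739, in that order. Ash1l, which also dimethylates H3K36, had 0.21 ± 0.07 (adjusted p = 0.0586), and Nsd2, Nsd3 and Setd2 lay from -0.02 to 0.11.

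The 3 H4K20 genes went apart. Kmt5c (chr7:4740115-4747514, plus strand), whose product di- and trimethylates H4K20 in heterochromatin, had 743, 804 and 1064 normalized counts for WT-Veh, 713, 771 and 720 for WT-Mem, 637, 770 and 625 for KO-Veh and 472, 512 and 655 for KO-Mem mice. Only KO-Veh replicate 2 reached the WT range, and WT-Veh replicate 3 stood above all other mice. The log2 fold change was -0.40 ± 0.10, a fall to 0.760 of the WT level (adjusted p = 0.0271, limma). Its adjusted p was 0.0526 without WT-Mem replicate 2, 0.0600 without KO-Veh replicate 1, 0.0745 without KO-Veh replicate 3, 0.0708 without KO-Mem replicate 1 and 0.0642 without KO-Mem replicate 2. Kmt5a, the H4K20 monomethyltransferase, had -0.28 ± 0.09 (adjusted p = 0.0629) and Kmt5b, the close paralog of Kmt5c, 0.17 ± 0.05 (adjusted p = 0.0530, limma for both). Kmt5c is on the chromosome of Shank2 but 139 Mb away from it, and the nearest members on that chromosome, Setd1a at 16.2 Mb and Kdm8 at 18.5 Mb, were not called.

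Setd5, a SET-domain gene of intellectual disability whose enzymatic activity is debated, had 4264, 3892 and 4399 normalized counts for WT-Veh, 4295, 4331 and 3750 for WT-Mem, 4607, 4374 and 4796 for KO-Veh and 5543, 4757 and 4781 for KO-Mem mice. KO-Veh replicate 2 was again the only KO mouse within the WT range. The log2 fold change was 0.21 ± 0.06, a rise of 15.6% (adjusted p = 0.0309, limma). Without WT-Veh replicate 2 the adjusted p was 0.0737, without WT-Mem replicate 3 0.0605, without KO-Veh replicate 1 0.0632, without KO-Veh replicate 3 0.0860 and without KO-Mem replicate 1 0.0782. Setd4 had 204, 240 and 220 normalized counts for WT-Veh, 214, 177 and 216 for WT-Mem, 189, 224 and 189 for KO-Veh and 285, 198 and 229 for KO-Mem mice, which overlapped in all 4 groups (0.04 ± 0.10, adjusted p = 0.835). Setd3, which methylates actin, and Setd6 had log2 fold changes of 0.01 ± 0.04 and 0.14 ± 0.10.

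None of the PRC2 core genes was called, and neither was Dot1l, the H3K79 methyltransferase (0.08 ± 0.06, adjusted p = 0.364, limma). Suz12, which holds PRC2 together, had 0.18 ± 0.06 (adjusted p = 0.0565) and was higher at an unadjusted p under 0.05. The catalytic subunits Ezh1 (0.06 ± 0.05) and Ezh2 (-0.05 ± 0.11) and the H3K27me3 reader Eed (-0.13 ± 0.08) had adjusted p from 0.294 to 0.783.

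**Figure D3:**
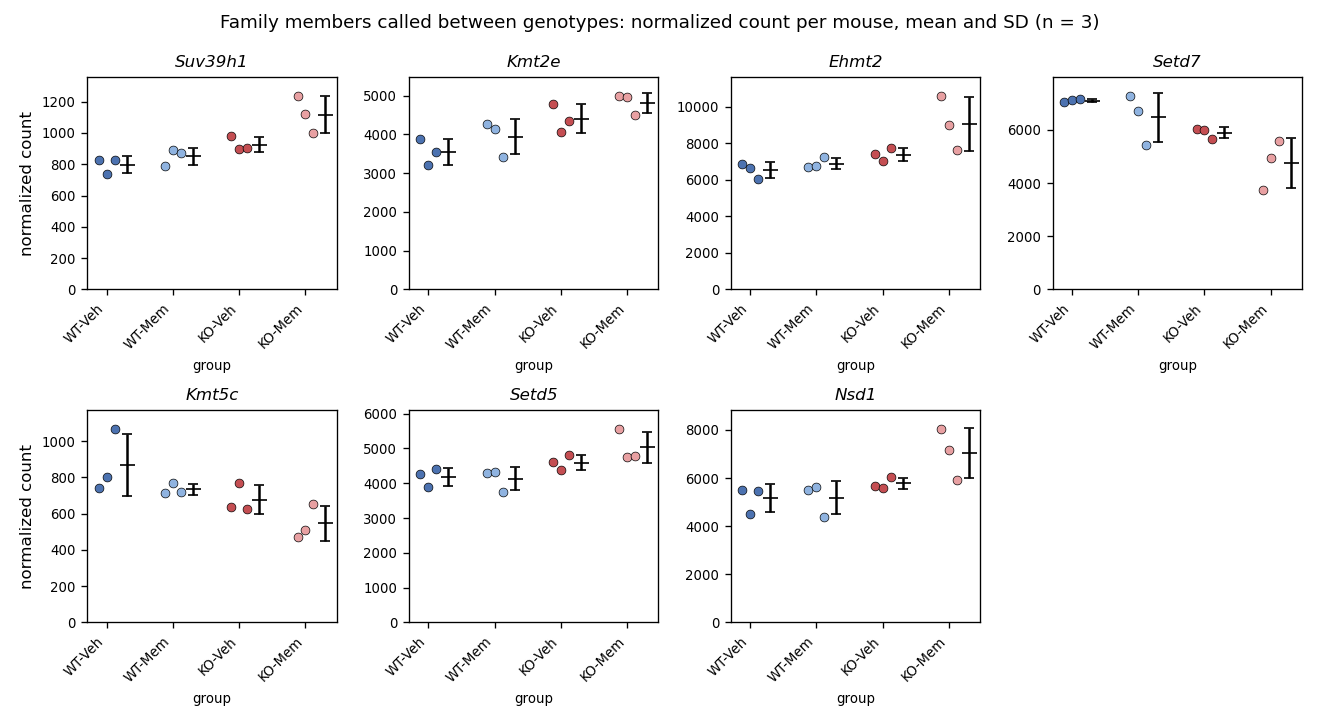
Normalized count per mouse (vertical axes from 0) in the 4 groups for the 7 members called between genotypes, with mean and SD of 3 mice beside the points. In all 7 the KO-Mem mean lies farthest from the WT groups, and KO-Veh lies between. The 7 were called from the difference between these KO and WT means.

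In all 7 called members the KO-Mem mean was the most changed, followed by KO-Veh and then both WT groups. The 7 were called from the difference between KO and WT means, so KO groups beyond WT groups follow largely from that choice. Over all genes, KO-Mem had the highest mean in 33.8% and the lowest in 33.9%. How often other called genes showed the same order was not tested. KO-Mem replicate 1 was the most extreme KO mouse in all 7 and KO-Mem replicate 3 the least extreme KO-Mem mouse in 6. Over all genes, KO-Mem replicate 1 was the highest mouse in 19.9% and the lowest in 19.8%. Just outside the threshold lay the H3K9 demethylase gene Kdm3a (0.27 ± 0.08, adjusted p = 0.0508), and Nsd1 was the called member nearest to it (limma).

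The 18 demethylase genes gave no call between genotypes. The 6 H3K4 demethylase genes included Kdm5a (0.26 ± 0.09, adjusted p = 0.0704) and Kdm1a, the amine oxidase LSD1 (0.12 ± 0.06, adjusted p = 0.169, limma for both), and 5 of the 6 lay above 0. The 7 genes of H3K9 and H3K36 demethylases held the widest range, from -0.12 (Kdm7a) to 0.75 (Kdm4d). Kdm4d is the member at the lowest level: it had 36.5, 20.7 and 42.3 normalized counts for WT-Veh, 39.6, 42.3 and 38.3 for WT-Mem, 54.3, 42.0 and 73.2 for KO-Veh and 105, 72.1 and 39.1 for KO-Mem mice. KO-Mem replicate 3 and KO-Veh replicate 2 lay within the WT range, and its log2 fold change of 0.75 ± 0.24 had an adjusted p of 0.0608 (limma). Kdm3a, a named example chosen after its values were seen, as was Kdm4d, lay at 1154 to 1353 normalized counts in the WT mice and at 1188 to 1934 in the KO mice. The H3K27 demethylase genes Kdm6a and Kdm6b had 0.15 ± 0.07 and -0.09 ± 0.09, and the H3K36 demethylase genes Kdm2a, Kdm2b and Kdm8 lay from -0.05 to 0.07.

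Besides the X-linked Suv39h1, which rose, 3 sex-linked members are given here, and none of these 3 was called between genotypes. Kdm5d, the Y-linked H3K4 demethylase gene, had 1210, 1091 and 1174 normalized counts for WT-Veh, 1140, 1082 and 916 for WT-Mem, 1206, 1019 and 1158 for KO-Veh and 1122, 1170 and 1123 for KO-Mem mice (0.04 ± 0.06, adjusted p = 0.688). Its X-linked counterpart Kdm5c, mutated in X-linked intellectual disability, had 2327, 2269 and 2118 for WT-Veh, 2585, 2427 and 2219 for WT-Mem, 2266, 2165 and 2095 for KO-Veh and 1992, 2305 and 2313 for KO-Mem mice (-0.09 ± 0.05, adjusted p = 0.311, limma). Kdm6a, the X-linked H3K27 demethylase gene UTX, had 952, 811 and 897 for WT-Veh, 816, 863 and 719 for WT-Mem, 882, 900 and 972 for KO-Veh and 1002, 1000 and 862 for KO-Mem mice. All 4 groups overlapped in each of the 3 genes, apart from WT-Mem and KO-Veh in Kdm6a.

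**Figure D4:**
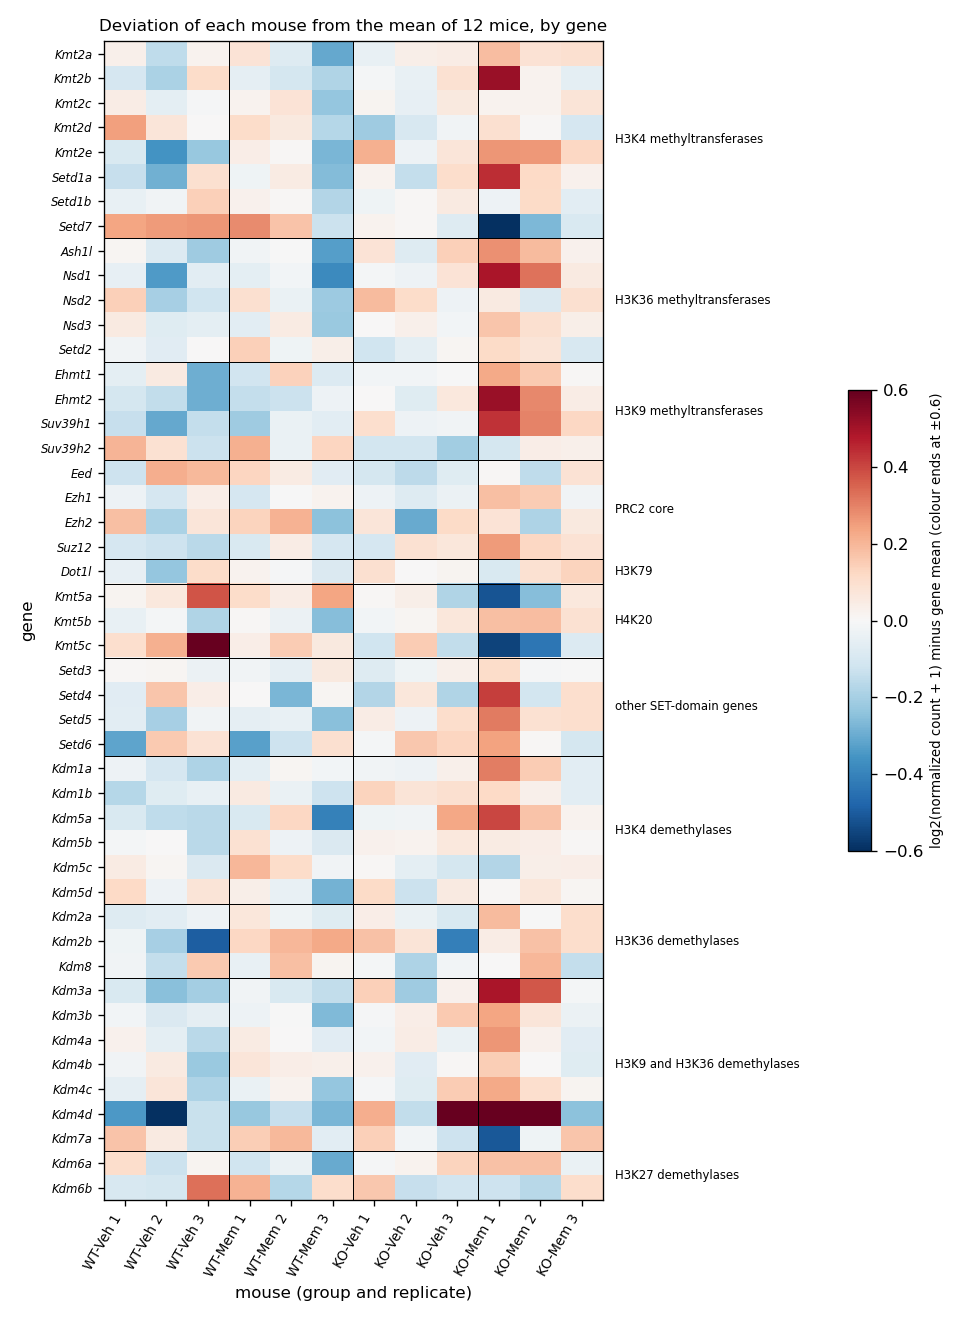
Deviation of each mouse (columns) from the mean of the 12 mice for each member (rows, by role), as log2(normalized count + 1); red is above and blue below the gene's mean, with the colour ending at 0.6 in both directions. The column of KO-Mem replicate 1 is the reddest, as the highest of the 12 mice in 26 of 47 members, and that of WT-Mem replicate 3 holds the most lowest values, 14.

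Across the whole family 1 mouse stood out. KO-Mem replicate 1 was the highest of the 12 mice in 26 of 47 members (55.3%), against 19.9% of all genes, and the lowest in 5 (10.6%, against 19.8% of all genes). The same mouse had the greatest relative depth of the 12 (1.15) and the lowest mitochondrial share (3.07%). The part of either in its values was not tested. WT-Mem replicate 3 was the lowest in 14 members (29.8%, against 11.2% of all genes). The median deviation of the members from their mean over the 12 mice was 0.18, 0.08 and 0.02 (log2) in KO-Mem replicates 1, 2 and 3, from -0.03 to 0.03 in the KO-Veh mice and from -0.10 to 0.02 in the WT mice. By group, KO-Mem had the highest mean in 27 members, WT-Veh and WT-Mem in 8 each and KO-Veh in 4, where KO-Mem was highest in 33.8% of all genes.

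For Veh-K/W transcripts, KO-Veh against WT-Veh mice, no member was called (limma on these 6 mice), and 5 of 17671 genes were called (0.0283%). At an unadjusted p under 0.05 Kmt2e (0.31 ± 0.09), Ehmt2 (0.18 ± 0.07), Suv39h1 (0.21 ± 0.08), Kdm4d and Kdm5a were higher and Setd7 (-0.27 ± 0.06), Kmt2d (-0.22 ± 0.08) and Kmt5c (-0.35 ± 0.14) lower, with adjusted p from 0.135 to 0.319. These 5 and 3 members compare with 6.73% and 7.68% of all genes, and 9.40% of long coding genes were higher. The 3 KO-Veh mice lay above the 3 WT-Veh mice in 10 members and below them in 2, Setd7 and Kmt2d, and the same held for 9.73% and 10.7% of all genes. The median log2 fold change of the members was 0.06, and 30 (63.8%) lay above 0 against 50.4% of all genes and 57.9% of long coding genes. Without WT-Veh replicate 2 this median was 0.016.

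For Mem-K/W transcripts, KO-Mem against WT-Mem mice, the members' fold changes were larger but again none was called, where 12 of 17646 genes were (0.068%). At an unadjusted p under 0.05, 14 members were higher and 3 lower, against 10.1% and 10.8% of all genes. Of long coding genes 12.7% were higher. Suv39h1 (0.39 ± 0.10), Ehmt2 (0.38 ± 0.10), Nsd1 (0.44 ± 0.12), Setd5 (0.28 ± 0.08) and Kmt5c (-0.44 ± 0.12) had the smallest p, with adjusted p from 0.0974 to 0.120, and the other 2 that were lower were Setd7 (-0.45 ± 0.14) and Kmt5a (-0.37 ± 0.13). The median was 0.13, with 34 members above 0 (72.3%, against 50.3% of all genes and 55.6% of long coding genes). This median was 0.078 without WT-Mem replicate 3 and 0.080 without KO-Mem replicate 1. The 3 KO-Mem mice lay above the 3 WT-Mem mice in 10 members and below them in 1, Kmt5c, and the same held for 12.7% and 13.5% of all genes. The count depended on KO-Mem replicate 3. Without this mouse 8 members were called, namely Suv39h1, Ehmt2, Nsd1, Kdm3a and Kdm4d higher and Kmt5c, Setd7 and Kmt5a lower, while 1911 of all genes (10.8%) were called.

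For KO-M/V transcripts, KO-Mem against KO-Veh mice, and for WT-M/V transcripts, WT-Mem against WT-Veh mice, no member was called (limma), and 0 of 17707 and 2 of 17564 genes were called (0% and 0.0114%). In KO mice Suv39h1 (0.27 ± 0.09), Nsd1 (0.28 ± 0.10) and Ehmt2 (0.28 ± 0.10) were higher and Setd7 (-0.33 ± 0.12) and Kmt5c (-0.32 ± 0.14) lower at an unadjusted p under 0.05, where all genes gave 4.34% and 4.54%. Their adjusted p were 0.554 to 0.557, and the median of the members was 0.09. Above 0 lay 37 of 47, against 49.7% of all genes and 51.3% of long coding genes. Treated and untreated KO mice did not overlap in 7 members that were higher and 1 that was lower (7.1% and 6.82% of all genes). Without KO-Mem replicate 3 Nsd1 was called (0.39, adjusted p = 0.0462), as were 97 of all genes (0.547%). Without KO-Mem replicate 1 no gene was called, the log2 fold changes of Setd7, Ehmt2 and Nsd1 were -0.16, 0.17 and 0.18, and the median of the members was 0.055. In WT mice the median was 0.00 (0.063 without WT-Mem replicate 3), and Kdm2b was the only member with an unadjusted p under 0.05 (1.5% of all genes were higher and 2.47% lower at that level). In WT mice 2 members were higher without overlap and none lower (4.15% and 5.19% of all genes), and 26 lay above 0 (50% of all genes and 53.8% of long coding genes).

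Kdm2b encodes an H3K36 demethylase that also brings Polycomb repressive complex 1 (PRC1) to CpG islands. It had 926, 821 and 669 normalized counts for WT-Veh, 1028, 1081 and 1102 for WT-Mem, 1065, 993 and 708 for KO-Veh and 972, 1064 and 1015 for KO-Mem mice. The WT-Mem mice lay above the WT-Veh mice (0.42 ± 0.11, adjusted p = 0.978, limma), while the 2 KO groups overlapped (0.16 ± 0.14). Over both genotypes the memantine difference of Kdm2b was 0.29 ± 0.10 (adjusted p = 0.459), no member was called (0% of all genes), and Kdm2b, Suv39h1, Ehmt2 and Kdm3a were higher and Setd7 and Kmt5c lower at an unadjusted p under 0.05 (3.63% and 5.05% of all genes). Above 0 lay 34 members (50.4% of all genes and 53.8% of long coding genes), and no member was without overlap between treatments (0.0963% of all genes higher, 0.0736% lower). On 627 exon bases Kdm2b shares its position with Rnf34 on the other strand, which was at 1289 to 1841 normalized counts.

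The interaction asked whether the genotype difference itself differed between the treatments. No member was called and none had an unadjusted p under 0.05 (limma, 12 mice), and no gene of 17655 was called (0%). The smallest p were those of Kmt2d (0.22 ± 0.12), Setd4 (0.36 ± 0.21) and Nsd1 (0.28 ± 0.16), each with an adjusted p of 0.947. The larger fold changes of the family in Mem-K/W than in Veh-K/W transcripts were therefore not shown to differ. The median interaction over the members was 0.07, with 33 above 0 (48.9% of all genes and 47.7% of long coding genes). This median was 0.022 without KO-Mem replicate 1, 0.031 without WT-Mem replicate 3 and 0.12 without KO-Mem replicate 3. At an unadjusted p under 0.05 all genes gave 2.41% and 2.34%.

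Treated KO mice were also compared with untreated WT mice (KO-M/WT-V transcripts). Suv39h1 (0.48 ± 0.10), Ehmt2 (0.46 ± 0.11) and Kmt2e (0.44 ± 0.08) rose and Setd7 (-0.60 ± 0.12) and Kmt5c (-0.67 ± 0.16) fell, with adjusted p of 0.0392, 0.0479, 0.0311, 0.0372 and 0.0481 (limma). These 3 and 2 calls compare with 1.32% and 2.05% of all 17662 genes, 3.37% in both directions. At an unadjusted p under 0.05, 14 members were higher and 3 lower (12.6% and 13.2% of all genes), and 35 lay above 0 (50.6% of all genes). Of long coding genes 16.4% were higher at that level and 56.7% lay above 0. Without overlap were 14 members higher and 2 lower, against 15.5% and 15.6% of all genes, and the median was 0.12. Each of the 5 calls was lost without WT-Veh replicate 1, 2 or 3 or KO-Mem replicate 1 or 2, when 0 members and 1 to 54 of all genes (0.00567% to 0.305%) were called. Without KO-Mem replicate 3, 13 members and 14.1% of all genes were called. The median was 0.070 without KO-Mem replicate 1. This comparison shares its KO-Mem mice with Mem-K/W and KO-M/V, and its WT-Veh mice with WT-M/V and Veh-K/W.

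For WT-M/KO-V transcripts, WT-Mem against KO-Veh mice, no member was called (limma, 4 of 17648 genes, 0.0227%), and Kdm6a (-0.20 ± 0.09) and Setd5 (-0.16 ± 0.07) were lower at an unadjusted p under 0.05 and none was higher (4.23% and 4.71% of all genes). Groups did not overlap in 4 members that were higher and 5 that were lower (7.73% and 7.13% of all genes). The median was -0.06, with 18 of 47 members above 0 (49.8% of all genes and 43.0% of long coding genes). This median was -0.011 without WT-Mem replicate 3 and -0.034 without KO-Veh replicate 3.

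**Figure D5:**
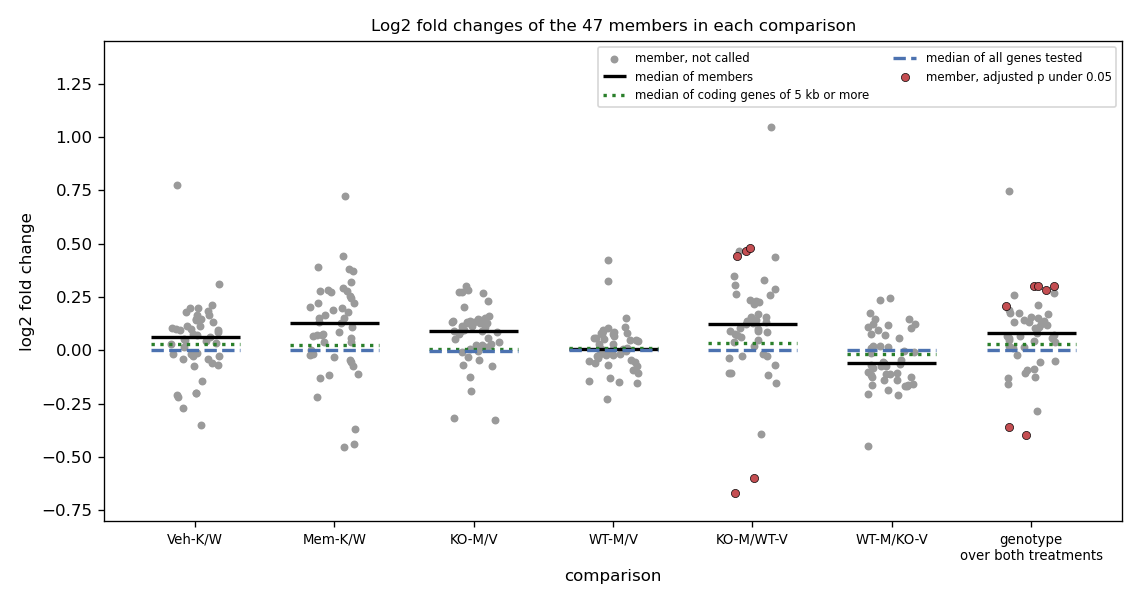
Log2 fold change (vertical axis) of the 47 members in the 6 pair comparisons and between genotypes over both treatments; grey points are members not called, red points members called, and lines give the medians of the members, of coding genes of at least 5 kb and of all genes tested. The member median lies farthest above the median of all genes in Mem-K/W (0.13) and KO-M/WT-V (0.12) and near it in WT-M/V (0.00).

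Partner genes of the enzymes gave few calls between genotypes. Of 13 partners of the H3K4 complexes (COMPASS and MLL), none was called and the median was 0.05. Of 7 accessory PRC2 subunits Mtf2, which guides PRC2 to CpG islands, rose (0.42 ± 0.07, adjusted p = 0.00827, limma), of 18 PRC1 subunits Phc1 rose (0.19 ± 0.05), and of 9 H3K9 partners and HP1 genes the corepressor Trim28 rose (0.20 ± 0.05). Among 14 other SET and PR-domain genes Smyd3 rose (0.48 ± 0.10) and Smyd1 fell (-0.67 ± 0.19), and among 12 other JmjC genes Hr (-0.33 ± 0.06) and Riox2 (-0.50 ± 0.13) fell. None of 11 partners of LSD1 and none of 5 genes of methyl donor supply was called. The background for these counts is that of the same comparison, 4.79% higher and 5.73% lower.

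Some cell type markers were called between genotypes, where 4.79% of all genes were called higher and 5.73% lower. Of 6 oligodendrocyte markers 5 fell (median -0.32), as did 4 of 5 endothelial (median -0.23), 2 of 6 astrocyte (median -0.14) and 1 of 6 microglia markers (median -0.25). Of 7 neuron markers (median 0.01) 1, Gad2, rose. At an unadjusted p under 0.05 (limma), 1 neuron marker was lower and 1 astrocyte marker higher. Summed oligodendrocyte markers ranged from 329081 to 407701 normalized counts in WT-Veh, 294380 to 345277 in WT-Mem, 285943 to 305397 in KO-Veh and 237444 to 280479 in KO-Mem mice. None of the markers of these 5 cell types was at 0 in any mouse. In bulk tissue, fewer cells of a type and less RNA per cell cannot be told apart, and the part of these markers in the results on the family was not tested. Mitochondrial transcripts made up 3.07% to 4.55% and the 47 members 0.329% to 0.412% of all normalized counts of a mouse, the members' share being 0.373% to 0.412% in KO-Mem and 0.329% to 0.377% in the other mice.

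The members' promoters were also compared with all promoters, by letters that the choice of genes did not use. A RefSeq promoter was found for 35 of 47 members, and in 34 its start lay within 1000 bases of the GENCODE start. Those 34 windows of 300 bases held a median of 26.5 CG dinucleotides against 7 over all 32851 promoters. A GC box was found in 22 (64.7%) against 35.7% of all promoters, a CCAAT box in 14 (41.2%) against 37.4%, and the TATA box TATAAA in 1, the Y-linked Kdm5d, against 13.6%. Some genes have several promoters among all promoters, and a match of letters is a description only. No promoter was given for the called members Kmt2e and Nsd1, and the Setd5 promoter was not used here.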

How the data were processed

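Forebrain RNA of each mouse was sequenced separately from poly-A libraries as paired reads. Per the labels, the authors quantified transcripts with Salmon 1.1.0 on GRCm38 and summed them to genes, and the deposited signal values are those estimated counts divided by DESeq2 size factors. They are not whole reads, so no count model was fitted, and the depth of each mouse is known only from the spacing of low values. Here log2(value + 1) was fitted with limma 3.58.1 (R 4.3.3, trended empirical Bayes) over genes averaging 10 or more in the fitted mice, with Benjamini-Hochberg adjustment over all of them. Pair comparisons used their own 6 mice, and genotype, memantine and interaction all 12. The fit was tested on simulated data. Groups came from the sample titles, and gene positions and lengths from GENCODE M21, which matched 19295 genes. Members and lists were chosen with earlier results of these data known. Values in every mouse are given for called members, for those with the smallest p in a comparison and for the sex-linked members. Alternatives were other pseudocounts, filters, scalings and weights, 1 fit of 12 mice, a replicate block and leaving out each mouse. All mice were compared as separate samples, and litters were not used.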

Additional observations from a re-analysis of the deposited data

How the results depend on the processing

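No called result changed direction under any alternative run. The 7 members called between genotypes became 17 with array weights, when 25.3% of all genes were called, and 2 to 16 when 1 mouse was left out. In Mem-K/W transcripts the 0 calls became 14 with array weights, when 27.8% of all genes were called, 3 in 1 fit of the 12 mice (3.6% of all genes), and 0 to 8 when 1 mouse was left out. In KO-M/V transcripts leaving out 1 mouse gave 0 to 1 calls. The 5 calls of KO-M/WT-V transcripts became 3 with no filter, 18 with array weights and 9 in 1 fit of the 12 mice, with 1.89%, 27.1% and 11.7% of all genes called against 3.37%, and 0 to 13 when 1 mouse was left out. The median of the members ranged from -0.011 to 0.063 (without WT-Mem replicate 3) in WT-M/V and from 0.070 (without KO-Mem replicate 1) to 0.16 in KO-M/WT-V transcripts when 1 mouse was left out. The cause of these shifts was not tested. The number of calls stayed at 0 under every alternative run in WT-M/KO-V, Veh-K/W and WT-M/V comparisons, for memantine over both genotypes and for the interaction. Of the single-member values 1236 kept their side of the threshold, 84 passed it only under an alternative and 49 no longer passed it.

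The replicate numbers showed no evident pairing of the mice. Over 18 pairs of mice with the same number the correlation of deviations from the group means ran from -0.175 to 0.0802. Of 12 mice, 2 correlated best with their own number. The deviations are from means of 3 mice, so these correlations cannot exclude a pairing. With the replicate number as a block, 10 members were called between genotypes (9.79% of all genes), 7 in KO-M/WT-V transcripts (5.66% of all genes) and 0 in the other comparisons. With 3 mice a group, small differences of the family are beyond what these data resolve, and depth is known only in relative terms.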
